A study of Mus musculus with 6 samples.

Results

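Human lincRNA counterpart loci were examined on a mouse long noncoding RNA microarray, as the probes whose names in the scanner output contain humanlincRNA and that are not control spots. This rule found 1217 probes of the 59709 probes on the array, which cover 609 of the 3170 loci that the array reads with strand-specific noncoding probes. A plus-strand and a minus-strand probe were present for 608 of these loci (608 plus and 609 minus probes in all), and each probe had 1 spot. The rule used probe names and no measured value. The study asked which long noncoding RNAs change when microglia are driven toward the alternative (M2) state. Primary microglia were shaken off mixed glial cultures of the cerebrum of newborn (P0) C57BL/6 mice and their RNA was read on 1-colour (Cy3) arrays. The 3 resting arrays held total RNA of cells kept for 24 h with no stimulus, and the 3 IL-4 arrays held RNA of cells given 10 ng/ml IL-4 for 24 h. All cells came from the same strain and culture procedure, and no allele or transgene differed between the groups. Cells shaken from mixed cultures can carry other glia. Microglial and other cell type markers were not analysed here, because none of the 37 marker genes looked up was paired with a probe by name. The labels number the arrays but do not say that they came from separate cultures, so the p-values below measure the spread between these arrays, which may be technical.

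Long intergenic noncoding RNAs (lincRNAs) are transcripts without an evident coding frame that arise between protein-coding genes. Their sequence is less conserved between mammals than that of coding exons, so a human lincRNA often has no annotated mouse transcript even where the genomic region can be aligned. An array that places probes on both strands of such regions asks whether the mouse region is transcribed and from which strand. IL-4 is the cytokine classically used to induce alternative activation of macrophages and microglia, a state associated with tissue repair. Neither the function of the named loci nor their neighbouring genes could be given, because the names carry only a serial number.

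The arrays differed in background, and this bears on every result below. The median processed signal of the negative control probes lay between 2.67 and 7.37 on 5 arrays and was 71.2 on IL-4 array 2. Feature Extraction, the scanner software, marked 67.7% of the negative control spots on IL-4 array 2 as well above background, against 0.417% to 11% on the other 5 arrays. Its well above background call is the detection call used here, and detection is therefore also given against a stricter limit, the 99th percentile of the negative control spots of the same array. IL-4 array 1 had a floor in its processed signal (4.635), at which 653 of the human lincRNA probes lay, and values at the floor have no order. The 3 resting arrays and IL-4 array 2 shared 1 scan, while IL-4 arrays 1 and 3 each had a scan of their own. With the scan as a block the IL-4 effect therefore rests on IL-4 array 2 alone, as it does within the shared scan. These fits are the same contrast and do not separate scan from treatment.

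Most human lincRNA counterpart probes gave little signal in these microglia. By the scanner call, 32.7% of them were detected on resting array 1, 16.9% on resting array 2 and 35.1% on resting array 3. The corresponding shares were 21.9%, 61.3% and 10.2% on IL-4 arrays 1, 2 and 3. The highest and the lowest share thus both came from the IL-4 group, and the groups overlapped. The mean share was 28.3% ± 9.87 (SD, n = 3) on resting arrays and 31.1% ± 26.8 (SD, n = 3) on IL-4 arrays. The difference of 2.88 percentage points was smaller than the spread between arrays (two-sided exact permutation test, p = 0.9, where 0.1 is the smallest p that 3 against 3 arrays allow). Without IL-4 array 2 the difference was -12.2 percentage points. Against the 99th percentile of the negative spots, 15.4%, 12.3% and 18.1% of the probes were detected on resting arrays 1 to 3 and 8.57%, 6.57% and 14.0% on IL-4 arrays 1 to 3. By that limit IL-4 arrays 1 and 2 lay below every resting array, while IL-4 array 3 lay within the resting range. The difference was then -5.53 percentage points (exact permutation test, p = 0.2).

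The human lincRNA probes were detected less often than the other probes of the same array on each of the 6 arrays. The other probes reached 62.1%, 40.3% and 60.3% on resting arrays 1 to 3 and 45.4%, 81.1% and 38.8% on IL-4 arrays 1 to 3. The mean within-array difference was -25.0 percentage points (two-sided exact sign-flip test over 6 arrays, p = 0.0312, adjusted p = 0.0417 over 4 comparisons, where 0.03125 is the smallest p possible). Against probes on the exons of mouse lincRNAs the difference was -15.6 percentage points (exact sign-flip test, adjusted p = 0.0417). Against mouse lincRNA locus probes, which also lie on both strands of a region, it was -2.68 percentage points, again with a lower share on 6 of 6 arrays (exact sign-flip test, adjusted p = 0.0417). Against probes on transcribed ultraconserved regions the mean difference was 0.784 percentage points (exact sign-flip test, p = 0.75), and the sign was not the same on all arrays. The same probes were read on every array. These p-values therefore measure only whether a difference recurred over these arrays, and do not test a difference between kinds of loci. In detected share the human lincRNA probes lay closest to the mouse lincRNA locus and ultraconserved region probes and well below the exon probes. The direction against the other probes, the exon probes and the locus probes was the same with the stricter limit.

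**Figure D1:**
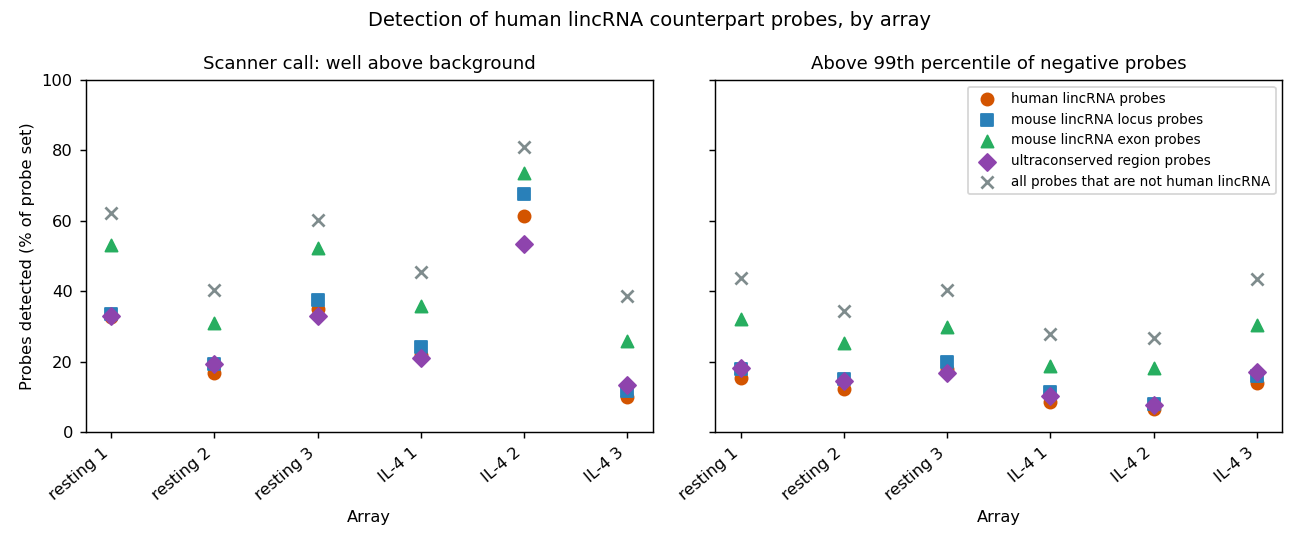
Percentage of probes detected on each of the 6 arrays (x axis, 3 resting and 3 IL-4), for human lincRNA probes, 3 other noncoding probe families and all probes that are not human lincRNA, by the scanner call (left) and above the 99th percentile of the negative control spots (right). On the left the human lincRNA share runs from 10.2% to 61.3%, the highest being IL-4 array 2, and on the right from 6.57% to 18.1%.

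Few loci gave a signal that did not depend on the array. By the scanner call, 358 probes were detected on none of the 6 arrays and 403 on 1 array, and that array was IL-4 array 2 for 357 of the 403. On all 6 arrays 96 probes were detected. On all 3 resting arrays 192 probes were detected and on all 3 IL-4 arrays 100, of which no probe combined detection on all IL-4 arrays with detection on no resting array. The reverse, all 3 resting arrays and no IL-4 array, held for 7 probes. The same counts over all probes of the array are not given, so these are not read as particular to the human lincRNA probes. By the stricter limit 930 probes were detected on no array and 40 on all 6. Those 40 probes belonged to 37 loci, and 27 of them were plus-strand and 13 minus-strand probes. Plus-strand probes were detected more often than minus-strand probes on 6 of 6 arrays by the scanner call (by 0.715 to 5.46 percentage points) and on 6 of 6 arrays by the stricter limit (by 2.00 to 4.30 percentage points). This is given as a description, since the same probes were read on every array.

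The strand classes of the loci followed the detection level of each array. Neither strand was detected at 284, 420 and 269 loci on resting arrays 1 to 3 and at 367, 101 and 495 loci on IL-4 arrays 1 to 3, of 605 to 608 loci with both values. Exactly 1 strand was detected at 41.1%, 27.7% and 41.2% of loci on resting arrays 1 to 3 and at 34.9%, 44.1% and 16.8% on IL-4 arrays 1 to 3. The groups overlapped here too. The means were 36.7% ± 7.78 (SD, n = 3) in resting and 31.9% ± 13.9 (SD, n = 3) in IL-4 microglia, a difference of -4.75 percentage points (two-sided exact permutation test, p = 0.7). Both strands were detected at 22.8%, 10.2% and 26.0% of the loci with any signal on resting arrays and at 11.3%, 47.1% and 9.73% on IL-4 arrays. The high value belonged to IL-4 array 2, on which most negative control spots were also marked well above background. Among loci with exactly 1 strand detected, the plus strand made up 51.1% to 59.5% on the 6 arrays.

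**Figure D2:**
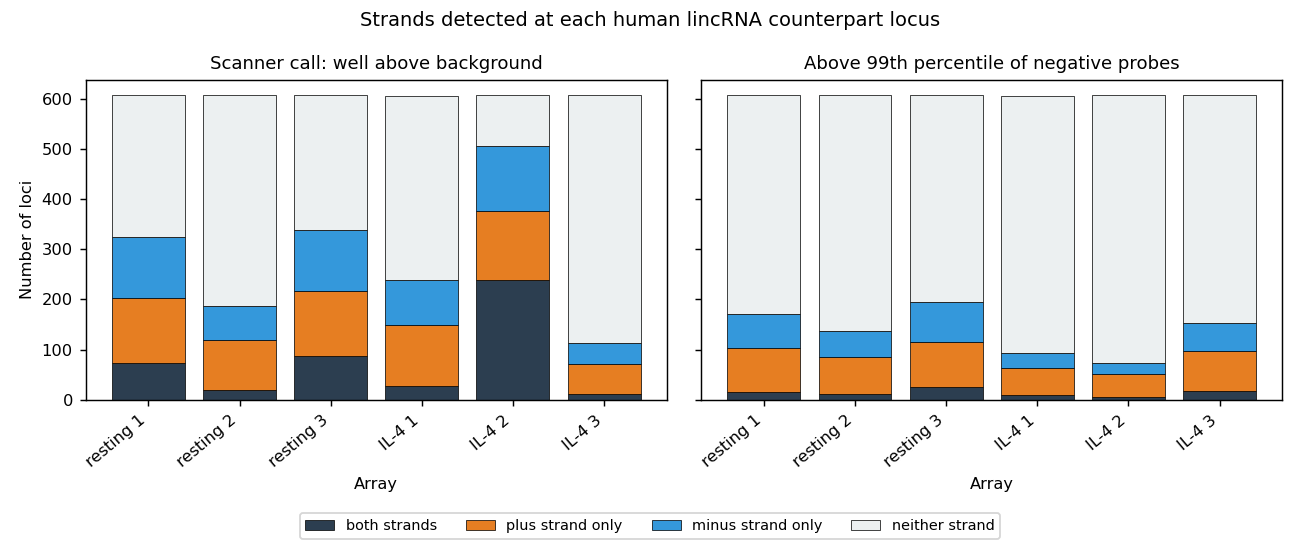
Number of loci with both strands, the plus strand only, the minus strand only or neither strand detected on each array, by the scanner call (left) and above the 99th percentile of the negative control spots (right). By the scanner call 101 loci on IL-4 array 2 and 495 loci on IL-4 array 3 had neither strand detected, with the resting arrays between them.

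Where 1 strand of a locus was detected on every array, the other strand was rarely detected on every array. The measure is the within-array difference of the plus minus the minus probe in normalized log2 signal. It is a difference in signal and not a ratio of RNA amounts, because the probes of a locus differ in sequence and may differ in affinity. The same strand was brighter on all 6 arrays at 177 of 603 loci with all values (92 plus and 85 minus). Among the 84 loci whose brighter strand was detected on all 6 arrays this held for 74 (42 plus and 32 minus). The brighter strand was defined from these same values, so the count of 74 follows in part from the choice of loci. The median size of the difference at these 84 loci was 3.73 on the log2 scale, and it was at least 2 at 71 of them and at least 5 at 18. The dimmer strand was detected on no array at 19 of the 84 loci, on 1 array at 30, on 2 to 5 arrays at 27 and on all 6 at 8. At 25 of the 30 loci that array was IL-4 array 2. Where the dimmer probe was not detected its value is background, so these sizes follow the brightness of the other probe and do not measure how far the strands differ. Of the 10 loci whose brighter strand changed, 6 changed on IL-4 array 2 alone.

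Values are given for the 6 loci that were chosen for the largest such differences in signal among the 84, a choice that itself requires the same strand to be brighter on every array. Since their dimmer probes were mostly not detected, the difference is given as a lower bound, in which the dimmer probe is set on each array to the higher of its own signal and the lowest normalized signal above the 99th percentile of the negative spots. At humanlincRNA2330 the plus probe was brighter by at least 7.18 on the log2 scale (mean over 6 arrays), and its minus probe was detected on none of the 6 arrays. At humanlincRNA2159 the minus probe was the brighter one, by at least 5.47, and read 11.72, 11.60 and 11.04 on resting arrays 1 to 3 and 12.56, 11.32 and 9.77 on IL-4 arrays 1 to 3 (normalized log2 signal). IL-4 arrays held both the highest and the lowest of these values, and the plus probe was detected on IL-4 array 2 alone.

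The minus probe was also the brighter one at humanlincRNA0065, by at least 5.86, and at humanlincRNA1398, by at least 3.99. The plus probe was the brighter one at humanlincRNA2199, by at least 5.94, and at humanlincRNA1773, by at least 4.72. The dimmer probe was detected on 1 array at humanlincRNA1773 and at humanlincRNA1398, on 3 at humanlincRNA0065 and on 4 at humanlincRNA2199 by the scanner call. By the stricter limit it was detected on 3 arrays at humanlincRNA2199 and on none at the other loci. The bounds also carry any difference in affinity between the probes, and no order of the loci is read from them.

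**Figure D3:**
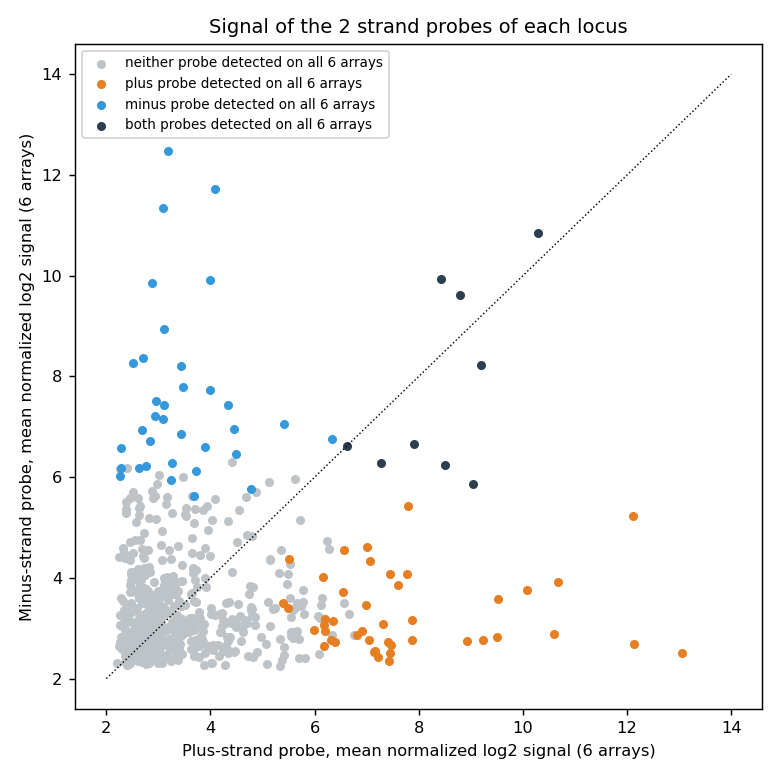
Mean normalized log2 signal over the 6 arrays of the plus-strand probe (x axis) and the minus-strand probe (y axis), with 1 point per locus, coloured by which probes were detected on all 6 arrays by the scanner call. The points of humanlincRNA2330 (plus 13.05 log2) and other detected loci lie along the axes, and few of the detected loci lie near the dotted line of equal signal. The remaining loci crowd at low signal on both strands, many of them near that line (median size of the mean strand difference 0.84 over 603 loci).

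Detection of both strands on every array was rare. By the scanner call 8 loci with unflagged values had both strands detected on all 6 arrays, and by the stricter limit 3 did, namely humanlincRNA1396, humanlincRNA2163 and humanlincRNA2397, which are named because they are so few and were picked after their values were seen. At humanlincRNA2163 the plus probe read 8.38, 8.64 and 8.54 on resting arrays and 8.71, 8.27 and 8.01 on IL-4 arrays (normalized log2 signal). The minus probe of the same locus read 10.21, 10.30 and 10.09 on resting arrays and 9.95, 9.76 and 9.24 on IL-4 arrays. Its strand difference of -1.50 ± 0.23 (SD, n = 6) had the lowest spread of the 84 loci. The difference was 0.97 ± 0.68 at humanlincRNA1396 and -0.82 ± 0.32 at humanlincRNA2397.

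The brightest human lincRNA probe was humanlincRNA2330+. It read 14.21, 13.65 and 13.23 on resting arrays 1 to 3 and 11.77, 13.13 and 12.33 on IL-4 arrays 1 to 3 (normalized log2 signal). Every IL-4 array lay below every resting array, although IL-4 array 2 came close to the lowest resting array. The probe was lower with IL-4 by 1.28 on the log2 scale (log2 fold change -1.28, SE 0.49, limma, unadjusted P = 0.0345, adjusted p = 0.893). The call was lost without resting array 1 or 2 and without IL-4 array 1 or 3, where the log2 fold change lay between -1.31 and -0.96. It was lost as well with the replicate number as a block and by the methods' t-test. With IL-4 array 2 alone against the resting arrays, the log2 fold change was -0.56 with the scan as a block and -0.55 within the shared scan. For humanlincRNA0847- the values were 13.00, 12.90 and 12.52 on resting arrays and 12.25 and 11.70 on IL-4 arrays 2 and 3. The spot on IL-4 array 1 was flagged as an outlier and left out of that fit, as it was for humanlincRNA2296+. The other bright probes overlapped between the groups, with log2 fold changes of -0.51 (SE 0.48) at humanlincRNA2296+, -0.57 (SE 0.49) at humanlincRNA2199+, -0.48 (SE 0.64) at humanlincRNA0065- and -0.23 (SE 0.71) at humanlincRNA2159-. None of these passed the unadjusted limit.

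The comparison of IL-4 with resting microglia called a probe by the limits of the study's methods, namely at least a 2-fold change together with P at or under 0.05 before adjustment. Testing required detection by the scanner call on 3 or more arrays, which 340 of the 1217 human lincRNA probes had. Of all 32992 tested probes of the array, 4.94% passed these limits (limma), and of the 340 human lincRNA probes 41 did (12.1%), on 40 loci. Lower with IL-4 were 40 of the 340 (11.8%, against 3.84% of all tested probes), and 1 was higher (0.294%, against 1.10%). None passed once P was adjusted over the whole array by Benjamini-Hochberg (limma, smallest adjusted p of a human lincRNA probe 0.893), while 42 reached 0.05 before adjustment. The groups did not overlap at 54 of the 340 probes (15.9%, against 10.9% of all tested probes). The median log2 fold change was -0.61 over the 340 probes, of which 82.9% lay below 0, and -0.15 over all tested probes, of which 59.8% did. The called share was 9.09% of mouse lincRNA locus probes, 6.31% of mouse lincRNA exon probes and 5.73% of ultraconserved region probes, and the differences between families were not tested.

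These counts depend on how probes entered the test and cannot be read as support for a general fall. Of the 340 probes, 165 were detected on more resting than IL-4 arrays, 11 on more IL-4 than resting arrays and 164 on as many of each, and 66 were tested only because IL-4 array 2 marked them as detected. With all 1217 probes entered, 78 were called (6.41%, against 5.23% of all probes without the filter), 15 higher and 63 lower. Over all 59702 probes without the filter 1195 were called higher and 1925 lower, so more calls were lower in both sets. Of the log2 fold changes, 52.5% lay below 0 against 49.8%. The median normalized log2 signal over the tested probes was 5.36, 5.72 and 5.82 on resting arrays and 5.77, 4.37 and 5.14 on IL-4 arrays, so that IL-4 array 1 lay within the resting range. IL-4 array 2 held the lowest of the 6 values at 44.9% of the 336 tested probes with all values, IL-4 array 3 at 26.5% and IL-4 array 1 at 16.7%. Leaving out 1 array at a time gave 16 to 101 calls in place of 41, while over all tested probes of the array it gave 676 to 3778 in place of 1631. When each array was scaled to its 75th percentile there were 28 calls, 6 higher and 22 lower. Over all 32992 tested probes there were then 1271 calls, 520 higher and 751 lower. The part of the background of IL-4 array 2 in these differences was not tested.

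**Figure D4:**
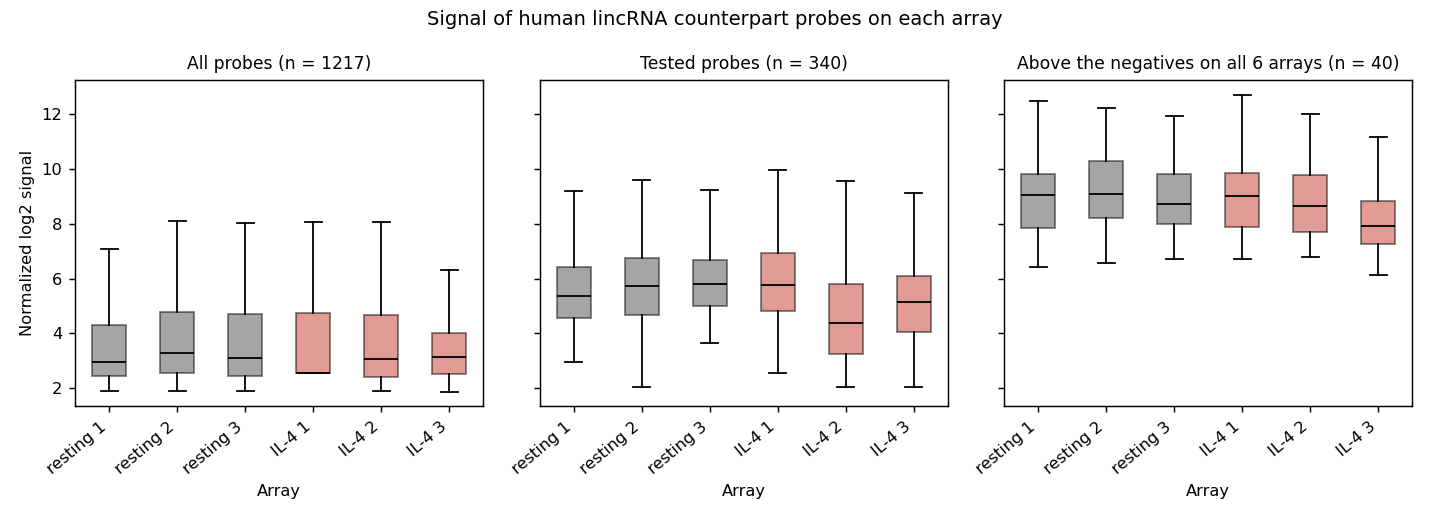
Normalized log2 signal of human lincRNA probes on each array (resting grey, IL-4 red), for all probes, for the 340 tested probes and for the 40 probes above the 99th percentile of the negative control spots on all 6 arrays; boxes span the quartiles with the median as a line, and whiskers reach the last value within 1.5 box lengths. The medians of the tested probes are lowest on IL-4 array 2 (4.37) and those of the 40 brighter probes on IL-4 array 3 (7.90), while over all probes the medians run from 2.54 on IL-4 array 1, its floor, to 3.30 on resting array 2.

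The 40 probes above the stricter limit on all 6 arrays do not owe their place to detection in 1 group. Their median normalized log2 signal was 9.07, 9.08 and 8.73 on resting arrays 1 to 3 and 9.0, 8.65 and 7.90 on IL-4 arrays 1 to 3. IL-4 array 3 was the lowest, and IL-4 array 1 lay within the resting range. The log2 fold change was below 0 at 34 of the 40 probes, with a median of -0.40 and a range of -1.30 to 0.54. Over all 12375 probes of the array that met the same limit, 46.3% lay below 0 and the median was 0.03. Called were 2 of the 40 (5.0%, against 1.24% of those 12375 probes), both lower, namely humanlincRNA2330+ and humanlincRNA1513-. The latter read 8.08, 9.08 and 7.91 on resting arrays and 7.59, 6.96 and 7.11 on IL-4 arrays (log2 fold change -1.14, SE 0.45, limma, unadjusted P = 0.0385, adjusted p = 0.893) and was named after its values were seen. Its groups did not overlap.

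Among the tested probes the largest fitted fall was that of humanlincRNA1656-. This probe read 4.43, 5.88 and 5.53 on resting arrays 1 to 3 and 2.54, 3.45 and 2.28 on IL-4 arrays 1 to 3 (normalized log2 signal, fitted log2 difference -2.52, SE 0.53, limma, unadjusted P = 0.00216, adjusted p = 0.893). All resting values exceeded all IL-4 values. The probe was well above background on 1 of 3 IL-4 arrays, IL-4 array 2, where its processed signal of 81.3 lay near the median of the negative spots (71.2) and under their 99th percentile (252), and its value on IL-4 array 1 was the floor. The fitted difference therefore runs against background values and is not a measured fold.

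The same holds for humanlincRNA2038- and humanlincRNA0540-. The first read 4.88, 5.60 and 4.81 on resting arrays and 2.54, 3.01 and 2.72 on IL-4 arrays, and the second 4.61, 5.29 and 5.35 on resting arrays and 2.54, 3.19 and 2.62 on IL-4 arrays. Groups did not overlap at either probe. Both were detected on IL-4 array 2 alone among the IL-4 arrays, with processed signals of 61.5 and 70.3, below the median of that array's negative spots, and neither passed the stricter limit on any resting array. With background correction by normexp and an offset of 50, which compresses low signals, the fitted differences of all 3 probes were between -0.52 and -0.38 and none was called. A probe outside the test, humanlincRNA2252-, which was named after its values were seen, read 5.55, 5.51 and 6.00 on resting arrays and 2.54, 2.58 and 2.00 on IL-4 arrays, but was well above background on 2 arrays.

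The probes humanlincRNA1907+ and humanlincRNA1780+ passed the stricter limit on all 3 resting arrays and on no IL-4 array. The first read 5.46, 6.62 and 6.47 on resting arrays and 3.75, 3.26 and 4.97 on IL-4 arrays (fitted log2 difference -2.19, SE 0.57, limma, unadjusted P = 0.0065). The second read 6.63, 6.43 and 7.33 on resting arrays and 3.90, 5.23 and 4.95 on IL-4 arrays (fitted log2 difference -2.11, SE 0.49, limma, unadjusted P = 0.00353). Neither pair of groups overlapped, and both calls held when any 1 array was left out. By the scanner call both were undetected on IL-4 arrays 1 and 3, and their processed signals on IL-4 array 2 (74.1 and 151) lay under the 99th percentile of its negative spots, so the size of these falls is not measured either. Both calls were lost with normexp. The probe humanlincRNA0970- read 5.61, 5.72 and 6.55 on resting arrays and 2.54, 4.05 and 4.89 on IL-4 arrays, of which IL-4 array 2 alone was marked as detected.

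For humanlincRNA1003- and humanlincRNA1070- no IL-4 array gave a signal well above background. Both were tested through their detection on the 3 resting arrays alone, so a lower IL-4 value follows in part from the filter. By the stricter limit each was detected on 1 resting array and on no IL-4 array, and the size of the fall is not measured. The first read 5.16, 5.91 and 5.54 on resting arrays and 4.82, 2.43 and 2.38 on IL-4 arrays. Its resting mean was 2.24-fold higher than the IL-4 arrays when these were set at the scanner's detection limits. That figure sets the mean of the resting arrays against, per IL-4 array, the higher of the probe's own signal and the lowest signal marked well above background. It was 1.22-fold without IL-4 array 2. The scanner call on that array also marked most negative control spots, so 2.24 is not taken as a lower bound. The second read 4.80, 5.77 and 5.80 on resting arrays and 2.54, 2.49 and 4.95 on IL-4 arrays, and its groups overlapped. Its figure was 2.13-fold with all arrays and 1.15-fold without IL-4 array 2, and the same limit applies.

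At humanlincRNA0736+ a single IL-4 array set much of the difference. The probe read 6.61, 6.26 and 7.18 on resting arrays and 2.54, 5.55 and 5.56 on IL-4 arrays, the first IL-4 value being at the floor, and its fitted log2 difference of -2.13 became -1.12 without that array. At humanlincRNA1779- the values were 5.66, 4.89 and 5.85 on resting arrays and 2.54, 2.72 and 4.66 on IL-4 arrays, and among the latter IL-4 array 2 alone was marked as detected. Of all 40 probes called lower, 24 passed the stricter limit on no IL-4 array, 14 on 1 or 2 and 2 on all 3. On IL-4 array 2 the scanner call marked 36 of the 40 as detected and the stricter limit 4. The lowest of the 6 values fell on IL-4 array 1 at 18 of the 40, on IL-4 array 2 at 17 and on IL-4 array 3 at 5, and 12 of the 40 were at the floor on IL-4 array 1. The resting values were moderate, with a median resting mean of 6.08, and 36 of the 40 lay below 8. The fitted fold changes of the 40, from 2.09 to 5.75, are thus mostly not measured on both sides.

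The 1 probe called higher with IL-4 was humanlincRNA0002+. It read 4.57, 2.52 and 4.03 on resting arrays and 4.60, 6.17 and 6.55 on IL-4 arrays (log2 fold change 2.06, SE 0.72, limma, unadjusted P = 0.0246, adjusted p = 0.893). The groups did not overlap, but resting array 1 and IL-4 array 1 were almost equal, and neither resting array 2 nor IL-4 array 1 gave a signal well above background. By the stricter limit the probe was detected on no resting array and on 1 IL-4 array. The call was lost without resting array 2 (1.43), IL-4 array 2 (2.01) or IL-4 array 3 (1.68).

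**Figure D5:**
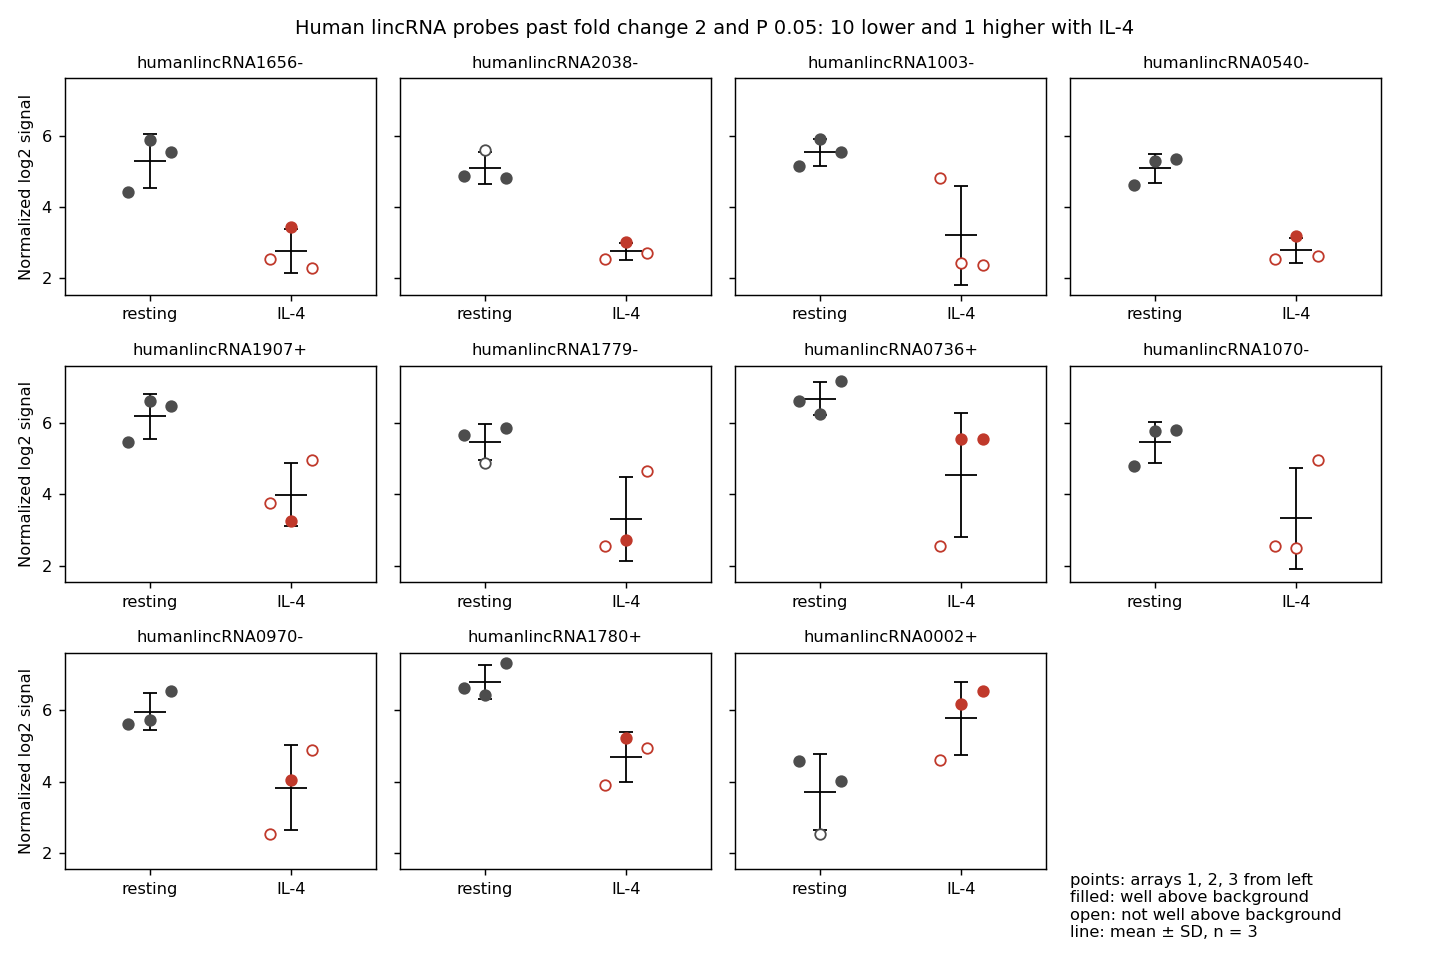
Normalized log2 signal of the 10 human lincRNA probes with the largest fitted fall and of the 1 probe that was higher with IL-4, among those past a fold change of 2 and an unadjusted P of 0.05; points are arrays 1, 2 and 3 from left to right (filled where well above background), and lines are the mean ± SD of 3 arrays. In 10 of the 11 panels the groups do not overlap, humanlincRNA1070- being the exception, and most IL-4 points are open or come from IL-4 array 2.

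The strand difference was compared between conditions at the 51 loci with both strands tested, which cancels a constant difference in affinity. Both strands had log2 fold changes below 0 at 34 loci, both above 0 at 1 locus, and opposite signs at 16. Taken singly, 82.9% of the tested human lincRNA probes lay below 0, and the split over all families is not given. It is therefore not read as a link between the strands. Of the 523 such strand pairs of all 4 noncoding families, 3.06% passed the limits, and of the 51 human lincRNA loci 1 did (1.96%). This was humanlincRNA1656, whose plus minus minus difference was 1.44, 0.51 and 0.17 on resting arrays and 5.41, 1.66 and 3.67 on IL-4 arrays (change 2.87 on the log2 scale, SE 1.00, limma, unadjusted P = 0.0145, adjusted p = 0.896). Every IL-4 value exceeded every resting value, but the minus probe was detected on IL-4 array 2 alone among the IL-4 arrays and lay at the floor on IL-4 array 1, so the change has no measured size. With IL-4 array 2 alone against the resting arrays, the change was 0.95 with the scan as a block and 0.92 within the shared scan. The call was lost without IL-4 array 1 (1.96), by the methods' t-test, with scaling to the 75th percentile (2.23) and with normexp (0.75). Under those last scalings the 1 called locus was another, and the direction was opposite, with a change of -2.65 at humanlincRNA0813 by the 75th percentile and of -1.20 at humanlincRNA2438 by normexp, both named after their values were seen. The plus probe of humanlincRNA1656 read 5.87, 6.40 and 5.70 on resting arrays and 7.95, 5.11 and 5.95 on IL-4 arrays, so its groups overlapped, while the minus probe is the one with the largest fitted fall given above.

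The next loci by P were humanlincRNA1003, humanlincRNA1812 and humanlincRNA1016, none of which passed. At humanlincRNA1003 the difference was -0.02, 0.34 and -0.13 on resting arrays and 0.94, 1.54 and 1.96 on IL-4 arrays, and its groups did not overlap. Its minus probe was well above background on no IL-4 array, so the IL-4 values run against background and no size of the change is given. At humanlincRNA1812 the fitted change was -1.73 (SE 1.02), and at humanlincRNA1016 it was -1.80 (SE 1.10), in both cases with a probe that IL-4 array 2 alone detected among the IL-4 arrays. At humanlincRNA1016 the difference was 2.24, 3.11 and 2.46 on resting arrays and 2.76, -1.81 and 1.47 on IL-4 arrays, so that the strand that was brighter turned on IL-4 array 2 alone.

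Both strands were called at 1 locus, humanlincRNA1094. The plus probe read 7.60, 7.55 and 7.58 on resting arrays and 5.61, 6.67 and 7.05 on IL-4 arrays (log2 fold change -1.13, SE 0.46, limma, unadjusted P = 0.0431). By the stricter limit it was detected on 3 resting arrays and on 1 IL-4 array, so the size of its fall is mostly not measured. The minus probe read 5.47, 5.37 and 5.67 on resting arrays and 3.43, 3.23 and 4.49 on IL-4 arrays (fitted log2 difference -1.79, SE 0.44, limma, unadjusted P = 0.00487). The minus probe was not detected on resting array 2 or on IL-4 arrays 1 and 3, and its processed signal on IL-4 array 2 (72.5) lay near the median of the negative spots there, so its fall has no measured size. Neither strand overlapped between the groups, and the resting spread was small on both (SD 0.03 and 0.15, n = 3). The plus-strand call was lost on leaving out any resting array or IL-4 array 1, with scaling to the 75th percentile, with normexp (-0.67), with a block on replicate number and by the methods' t-test. With IL-4 array 2 alone against the resting arrays, the plus-strand log2 fold change was -0.90 with a block on scan and -0.85 within the shared scan. At humanlincRNA2199 the bright plus probe differed by less than the spread, while the minus probe read 5.51, 6.64 and 6.33 on resting arrays and 4.27, 3.70 and 4.96 on IL-4 arrays (fitted log2 difference -1.85, SE 0.49, limma, unadjusted P = 0.00718). Among the IL-4 arrays that probe was detected on IL-4 array 2 alone, at a processed signal of 92.1, under the 99th percentile of the negative spots.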

How the data were processed

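RNA of 6 microglia samples was read on 1-colour arrays, 3 per group. The authors deposited the scanner output (Agilent Feature Extraction 10.7.3.1), with background-subtracted processed signal as linear intensity, raw median intensity and well-above-background flags, and a table of normalized log2 values. The methods name quantile normalization in GeneSpring GX for that table. Here, processed signals were set to missing where flagged as outliers (5 human lincRNA spots), converted to log2, quantile-normalized and averaged over replicate spots, leaving out control and negative spots. Probes detected on 3 or more arrays and unflagged on 2 or more per group were tested with limma 3.58.1 in R 4.3.3, adjusted by Benjamini-Hochberg over 32992 probes. Exact tests used scipy 1.17.1. In data simulated for IL-4 against resting over 32811 probes, 85% of 100 probes changed by 2 log2 units and 98% of 100 changed by 3 were recovered, and 1427 unchanged probes were called. The measured data gave 1631 calls among 32992 tested probes. Smaller changes were not simulated, although a 2-fold change suffices for a call. Named are called probes (up to 10 per direction), the 6 brightest, the 4 smallest strand P and loci with both strands called. The 6 largest strand differences with the same strand brighter on all 6 arrays are named too. The loci and lists were chosen with earlier results of these data known. Probe sequences and positions were not analysed here. Alternatives covered scaling, background, filter, flags, blocks and arrays left out.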

Additional observations from a re-analysis of the deposited data

How the results depend on the processing

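The IL-4 minus resting difference in detected share turned from 2.88 to -6.46 percentage points above the 95th percentile of the negative spots, -5.53 above the 99th, and -3.97 above the 99th without IL-4 array 2 (added after the data were seen), and ran from -12.2 to 13.4 with 1 array left out, being negative without resting array 2 (-2.78) or IL-4 array 2 (-12.2). With 5 arrays no adjusted p below 0.0833 is possible for the shares against other probes (-26.0 to -24.1), mouse lincRNA locus probes (-3.07 to -1.93) and exon probes (-16.3 to -14.7), so these kept their direction and lost their call. Against ultraconserved region probes the difference was -0.673 above the 95th percentile, -1.66 above the 99th and -0.653 without IL-4 array 2, within a range of -0.653 to 1.61. The difference in loci with exactly 1 strand detected ran from -10.8 to 2.82, the latter without IL-4 array 3. The same strand was brighter on all arrays at 74 loci with the detection limit in place of 177.

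The 41 calls became 4 with normexp (270 of 32992 over all tested probes) and 12 of 96, with 12 lower, where detection was required throughout (490 of 18872, with 353 lower). They became 78 of 1217 without a filter (3120 of 59702) and 22 by the methods' t-test and fold limit (836 of 32992). With 1 array left out they ran from 16 to 101 (19, 18 and 16 without resting arrays 1, 2 and 3, and 101, 25 and 53 without IL-4 arrays 1, 2 and 3). The ends of that range were 16 of 260 (676 of 28286 over all tested probes) and 101 of 323 (3778 of 32104). With scan as a block there were 143 calls among 340 tested probes. Within the shared scan, where IL-4 array 2 alone stands against the resting arrays, there were 144 among 321. In both fits the called share also rose over all tested probes of the array. The IL-4 effect rests on IL-4 array 2 alone in both, so nothing is concluded from these counts. Of these alternatives normexp shared 2 calls with the 41, the block on scan 29 and the fit without IL-4 array 2 18. Calls for a changed strand difference were 0 of 9 loci where detection was required throughout (2 of 93 strand pairs of all 4 families). Without a filter they were 43 of 608 (190 of 3157). They were 8 of 51 with the block on scan and 8 of 46 within the shared scan. In both of these fits the called share rose over all strand pairs too, and to a higher level than at the human lincRNA loci. Both rest on IL-4 array 2 alone, so nothing is concluded from these counts. Calls were 1 to 3 with 1 array left out. By the 75th percentile and by normexp 1 locus was called as well, but another one and in the opposite direction. With the replicate number as a block 36 probes were called (1600 of 32992 over all tested probes), 31 of them among the 41. Deviations of same-numbered arrays correlated at -0.22, 0.14 and -0.09 over tested probes, so the numbers were not taken to pair the arrays.

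Single log2 fold changes that changed sign, with their range when 1 array was left out, were those of humanlincRNA0065- (-1.09 to 0.0081, positive without IL-4 array 3), humanlincRNA2159- (-0.91 to 0.49, positive without IL-4 array 3), humanlincRNA1773+ (-0.52 to 0.087, positive without IL-4 array 3), humanlincRNA0065+ (-0.17 to 0.82, negative without resting array 1, and -0.25 with the block on scan), humanlincRNA1398- (-0.70 to 0.41, and 0.058 without resting array 2), humanlincRNA1656+ (-0.46 to 1.04, -0.88 with the block on scan and -0.82 within the shared scan) and humanlincRNA1812+ (0.56 with the block on scan and 0.54 within the shared scan). The cause of these changes was not tested. The median log2 fold change of the tested probes stayed below 0, between -0.94 and -0.25, with 1 array left out. Signal over background limits most of these probes, and 3 arrays per group limit the precision.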
